A study of Mus musculus with 4 samples.

Results

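A set of 10 regulators of the epithelial state were examined in mouse embryonic stem (ES) cells that lack Snai1. The set holds the splicing regulators Esrp1 and Esrp2, the transcription factors Grhl2, Grhl3, Ovol1, Ovol2 and Elf3, the membrane protease St14 and its inhibitors Spint1 and Spint2. Every probe set that the platform annotation assigns to exactly 1 gene, that gene being in this set, was taken. This gave 16 probe sets for 10 genes, of 45037 probe sets tested and 18193 named genes, and 6 of the 10 genes had a single probe set. The knockout group (KO) held 2 arrays of Snai1 knockout ES cells, and the control group held 2 arrays of control ES cells, titled F/F without an explanation. The source name of the control samples also contains the words knock out, so their title and genotype field were used to call them control, and every sign below depends on that. Both groups were grown alike, with leukaemia inhibitory factor on feeder cells and without further treatment, and the labels do not say how the knockout was made, whether each group is 1 clone, or what separated the biological replicates.

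ES cells are pluripotent cells with epithelial features, held together by E-cadherin. Snail, the product of Snai1, is a zinc finger repressor that binds E-boxes and silences epithelial genes during epithelial-mesenchymal transition. Grainyhead-like, Ovol and Elf3 factors act on the other side, by activating junction genes or by repressing mesenchymal genes such as Zeb1. Esrp proteins bind RNA and direct the epithelial splicing of transcripts such as Fgfr2, Cd44, Ctnnd1 and Enah. Matriptase, the St14 product, is a serine protease of epithelial surfaces, and the Kunitz-type inhibitors encoded by Spint1 (HAI-1) and Spint2 (HAI-2) hold it in check.

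None of the 16 probe sets differed between KO and control at an adjusted p of 0.05 (limma, adjusted over all probe sets), where 0.546% of all probe sets tested did. At an unadjusted p of 0.05, 4 of the 16 lay apart, 2 higher and 2 lower in KO. The higher were Elf3 and 1 of the 2 probe sets of Spint2. The lower were Esrp1 and 1 of the 2 probe sets of Esrp2. The share over all probe sets at that level was 19.5%, with 8.34% higher and 11.2% lower. In 8 of the 16 both KO arrays lay beyond both control arrays, 6 higher and 2 lower, against 49.4% of all probe sets. The median difference, KO minus control, was 0.06 on the log2 scale over the 16 and -0.01 over all. With 1 probe set per gene, the brightest, 4.14% of genes passed and none of the 10 did, and their adjusted p lay between 0.0931 (Esrp1) and 0.909 (Spint1). All values are deposited log2 expression values, and in such bulk RNA a lower level in every cell and fewer cells that express a gene cannot be told apart.

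**Figure D1:**
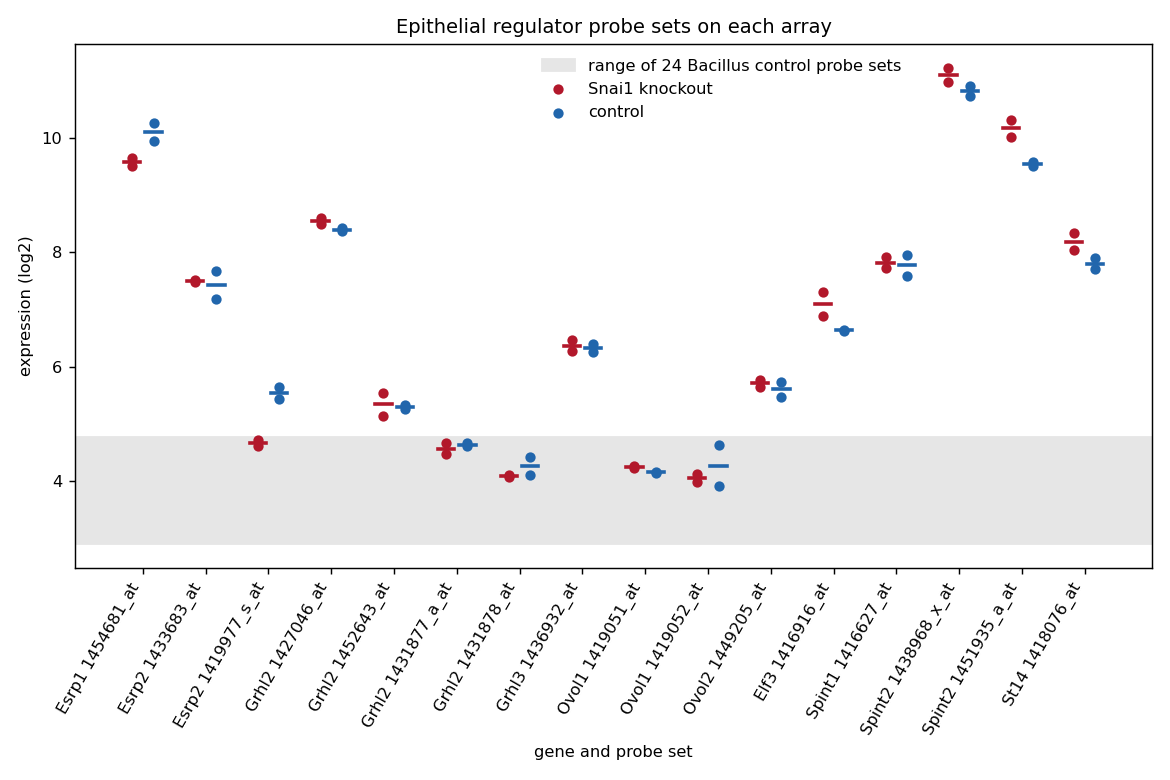
Expression (log2) of the 16 probe sets of the 10 epithelial regulators on each array. Each dot is 1 array, bars are group means, KO stands left of control, and the grey band is the range of 24 Bacillus control probe sets (2.91 to 4.77). There, 4 probe sets, 2 of Grhl2 and 2 of Ovol1, lie within the band on all 4 arrays, and both Spint2 probe sets are higher on both KO arrays.

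Background was read from 24 control probe sets for Bacillus transcripts, which spanned 2.91 to 4.77 with a median of 3.27 over the 4 arrays. Array medians lay at 4.94 and 4.95 in KO and 4.95 and 4.91 in control. RMA, which the submitters' notes name, equalises the arrays' distributions, so near-equal medians cannot show whether an array stood apart. RNA end bias did differ between the groups. The 3' probe set of Actb exceeded its 5' probe set by 1.11 and 0.80 in KO, against 3.02 and 2.97 in control, and for Gapdh the gap was 0.40 and 0.27 in KO, against 1.24 and 1.48 in control. The part of this gap in the differences below was not tested. As an alternative, a trend on gene span and mean level was fitted and subtracted per array (the span trend below). Gene span is the length of a gene in the genome, not a probe set's distance from the 3' end of the transcript. Subtracting it therefore cannot show the part of the gap. Snai1 itself had 1 probe set, at 3.79 and 4.04 in KO and 4.41 and 4.69 in control, all within the background range, so it does not by itself check the labels.

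Promoter windows, from 250 bases before to 50 bases after the transcription start, were found in RefSeq (GRCm38.p6) for Grhl3, Ovol2, Elf3, Spint1 and Spint2. They were searched on both strands for the E-box that Snail and Zeb proteins bind, CAGGTG or its reverse complement CACCTG, which is also a form of the general E-box CANNTG. The 4 windows printed here are shown because the factor removed from these cells binds this E-box, and because the paired inhibitors Spint1 and Spint2 differ in it. Sequences run 5' to 3' on the strand of the gene, with CAGGTG or CACCTG in capitals.
Spint2, chr7:29281928-29282227, minus strand: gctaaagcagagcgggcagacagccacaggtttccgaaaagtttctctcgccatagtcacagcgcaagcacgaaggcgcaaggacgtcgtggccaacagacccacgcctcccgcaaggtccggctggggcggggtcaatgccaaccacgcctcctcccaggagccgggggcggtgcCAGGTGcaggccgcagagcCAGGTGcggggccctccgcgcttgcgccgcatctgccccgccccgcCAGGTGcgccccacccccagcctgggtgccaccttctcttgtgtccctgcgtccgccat
Spint1, chr2:119237110-119237409, plus strand: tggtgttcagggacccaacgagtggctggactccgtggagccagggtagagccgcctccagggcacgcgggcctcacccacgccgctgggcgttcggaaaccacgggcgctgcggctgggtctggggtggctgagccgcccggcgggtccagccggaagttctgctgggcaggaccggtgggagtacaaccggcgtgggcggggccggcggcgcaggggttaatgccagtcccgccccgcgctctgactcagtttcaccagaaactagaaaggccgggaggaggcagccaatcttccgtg
Grhl3, chr4:135573583-135573882, minus strand: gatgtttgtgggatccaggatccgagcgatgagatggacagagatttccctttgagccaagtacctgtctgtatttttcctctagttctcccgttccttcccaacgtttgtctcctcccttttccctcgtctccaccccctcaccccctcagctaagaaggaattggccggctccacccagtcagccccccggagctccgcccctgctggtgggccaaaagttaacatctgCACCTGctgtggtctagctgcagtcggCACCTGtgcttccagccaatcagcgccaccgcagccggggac
Elf3, chr1:135258423-135258722, minus strand: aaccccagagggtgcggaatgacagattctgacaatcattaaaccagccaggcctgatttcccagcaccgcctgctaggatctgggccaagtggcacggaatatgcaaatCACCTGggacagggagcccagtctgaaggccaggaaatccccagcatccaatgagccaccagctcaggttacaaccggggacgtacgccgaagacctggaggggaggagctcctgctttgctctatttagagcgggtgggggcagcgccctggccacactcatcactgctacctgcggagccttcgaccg

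The Spint2 window held 3 such E-boxes, whose first bases lie at -74, -55 and -9 from the start. At least 3 were found in 0.365% of all 32851 windows. Grhl3 held 2, at -19 and 9, and Elf3 held 1, at -140, where 20.2% of all windows held at least 1 and 2.88% at least 2. The windows of Spint1 and Ovol2 held none and also held no CANNTG, which 72.3% of windows contained. The grainyhead sequence AACCGGTT was in none of the 5 windows and in 0.146% of all. A match is a run of letters and not a measured site, and windows without one say nothing of binding elsewhere.

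**Figure D2:**
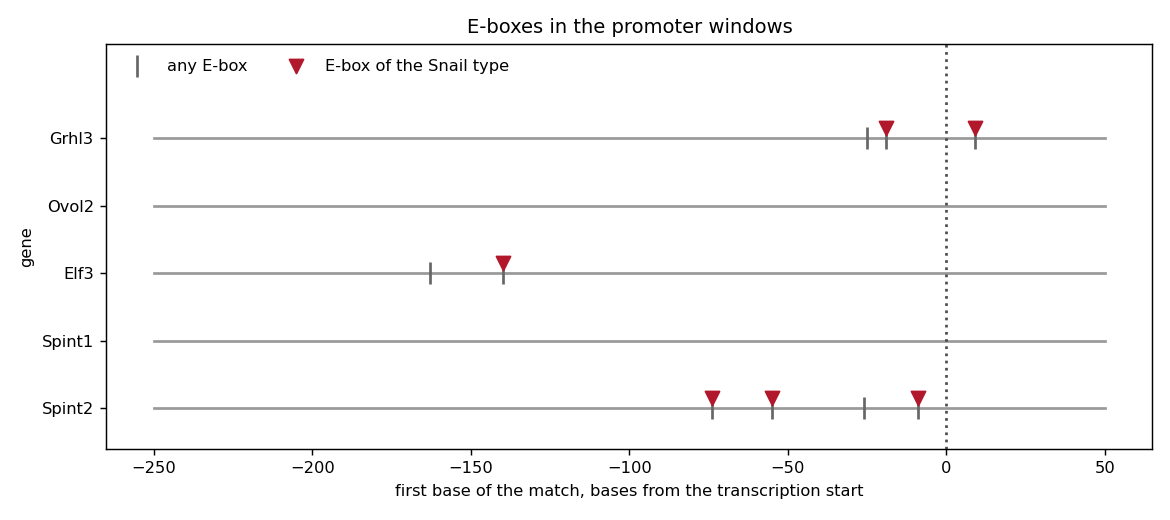
Positions of E-boxes in the 5 promoter windows, in bases from the transcription start (dotted line). Triangles mark CAGGTG or CACCTG and ticks mark any CANNTG; Spint2 has 3 triangles between -74 and -9, Grhl3 has 2, Elf3 has 1, and the Ovol2 and Spint1 lines are empty.

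Among the transcription factors, Grhl2, which activates Cdh1 and claudin genes, was read clearly by 1 of its 4 probe sets. That probe set (1427046_at) stood at 8.50 and 8.59 in KO, against 8.42 and 8.37 in control. The groups did not overlap, but the difference of 0.15 ± 0.12 (SE) did not pass (adjusted p = 0.589), with a 95% interval from -0.15 to 0.45. A dimmer probe set (1452643_at) was at 5.14 and 5.55 in KO and 5.33 and 5.27 in control, so its control arrays lay between the KO arrays (difference 0.05, interval -0.37 to 0.46). The other 2 probe sets, 1431877_a_at and 1431878_at, lay within the background range on all 4 arrays, and their differences of -0.08 and -0.18 are likewise of background readings. With the span trend subtracted, the brightest set differed by 0.34 ± 0.15 (SE), still short of the threshold (adjusted p = 0.246, within 0.246 to 0.962 over the 10 alternatives that keep all arrays).

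Grhl3, which acts in the skin barrier and in neural tube closure in the mouse, had a single probe set. It was at 6.47 and 6.27 in KO and 6.40 and 6.25 in control, and the groups overlapped. The difference was 0.05 ± 0.14 (SE, adjusted p = 0.909), with a 95% interval from -0.30 to 0.39.

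Ovol1, a zinc finger factor of epidermal and germ cell development in the mouse, was not read above background. Its probe sets stood at 4.23 and 4.26 (1419051_at) and at 3.98 and 4.12 (1419052_at) in KO, against 4.17 and 4.15, and 3.91 and 4.63, in control. All 8 values lie within the range of the Bacillus probe sets, so differences between them are differences of background readings.

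Ovol2, its relative, which represses Zeb1 and other mesenchymal genes, was a little above that range, at 5.65 and 5.77 in KO and 5.48 and 5.74 in control. The groups overlapped and the difference was 0.11 ± 0.15 (SE, adjusted p = 0.767, 95% interval -0.25 to 0.46). Elf3, an ETS factor of simple epithelia, was at 7.31 and 6.89 in KO, against 6.63 and 6.65 in control. Both KO arrays were above both control arrays, and they differed from each other by more than the control arrays did (SD 0.29 in KO and 0.019 in control, n = 2 each). Its difference of 0.46 ± 0.17 (SE, interval 0.05 to 0.87) did not pass (adjusted p = 0.213). Without KO replicate 1 the Elf3 difference was 0.25, and after removal of the span trend it was 0.34, against 0.67 without KO replicate 2.

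The splicing regulator Esrp1 had 1 bright probe set, at 9.64 and 9.51 in KO and 9.95 and 10.25 in control. Both KO arrays were lower than both control arrays. The difference of -0.52 ± 0.15 (SE), a ratio of KO to control of 0.696, had a 95% interval of -0.90 to -0.15 and did not pass after adjustment (adjusted p = 0.137). It was -0.35 with the span trend subtracted (adjusted p = 0.244, within 0.0931 to 0.244 over 10 alternatives) and between -0.67 and -0.38 with 1 array left out.

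The paralogue Esrp2 was read differently by its 2 probe sets. The brighter (1433683_at) was at 7.48 and 7.52 in KO and 7.19 and 7.68 in control, so the KO arrays lay inside the control pair, and the difference was 0.06 ± 0.19 (SE, adjusted p = 0.905, interval -0.39 to 0.52). The other (1419977_s_at) was at 4.72 and 4.61 in KO, against 5.44 and 5.65 in control. Both KO values lie within the background range, and the control values do not, so the KO level is only bounded and no fold is given. The difference of the readings, -0.88 ± 0.14 (SE), did not pass (adjusted p = 0.0566). It passed after removal of the span trend (-0.92, adjusted p = 0.0465; 1.48% of all probe sets tested passed there), within 0.042 to 0.059 over the 7 alternatives that tested it with all arrays, and with 1 array left out its adjusted p was 0.0921 to 0.319. The suffix _s_at marks probes that can match more than 1 transcript, and the brightest Fgfr2 probe set below (1433489_s_at) also carries it.

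**Figure D3:**
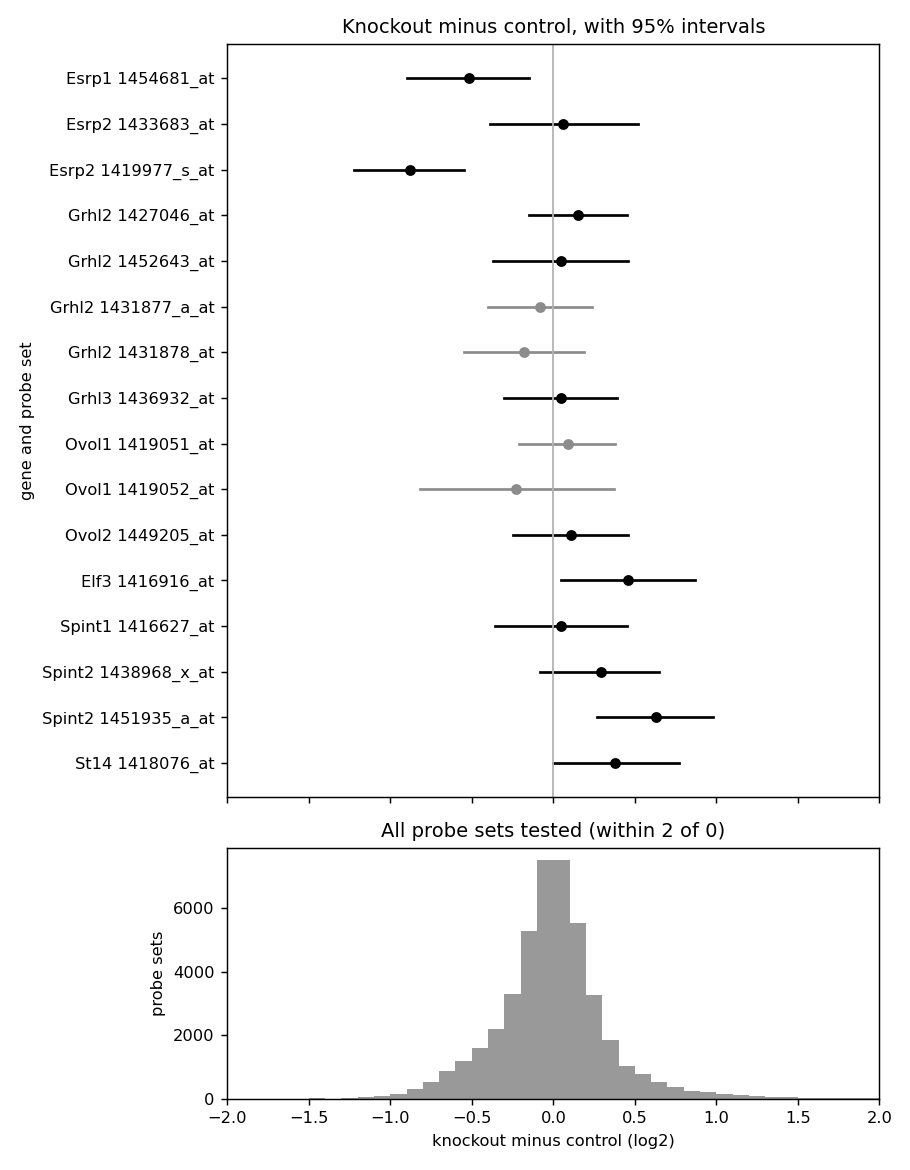
Upper panel, KO minus control (log2) for the 16 probe sets with limma's 95% intervals, grey where all 4 arrays lay within the background range. Lower panel, the same difference for all probe sets tested. The intervals of Esrp1 and of 1 Esrp2 probe set lie below 0, those of Elf3 and of 1 Spint2 probe set lie above 0, and the other 12 include 0; none passed after adjustment.

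Transcripts that Esrp proteins splice were then read as total levels, because these probe sets were not matched to single isoforms. Of 5 measured, 1 fell and none rose, where 0.107% of all probe sets fell and 0.44% rose. At an unadjusted p of 0.05, 1 was higher and 1 lower, against 8.34% higher and 11.2% lower over all probe sets. The higher was Ctnnd1, by 0.48, named after its values were seen. Fgfr2, which encodes a fibroblast growth factor receptor with an epithelial and a mesenchymal isoform, fell to 6.75 and 6.77 in KO, against 7.67 and 7.73 in control. The difference was -0.94 ± 0.12 (SE, adjusted p = 0.0483, ratio 0.521). Its other probe sets did not pass, at -0.20 for 1420847_a_at, near the background range, and -0.10 for 1443211_at, within it. This call was lost with an intensity trend, with all probe sets averaged and after removal of the span trend. It was also lost with any 1 array left out. Such fits leave a single array in 1 group and lose power for every probe set. The median difference of the 5 genes was 0.03, against -0.01 over all probe sets.

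Matriptase and both inhibitors were read well above the background range on all 4 arrays. Spint2, encoding HAI-2, had 2 probe sets. The first (1451935_a_at) was at 10.30 and 10.02 in KO, against 9.50 and 9.57 in control, and the second (1438968_x_at) at 11.22 and 10.97 in KO, against 10.90 and 10.72 in control. In both, the KO arrays lay above both control arrays. The first differed by 0.63 ± 0.15 (SE), a ratio of KO to control of 1.55 with a 95% log2 interval of 0.27 to 0.98, and did not pass (adjusted p = 0.0908). The second differed by 0.29 ± 0.15 (SE, adjusted p = 0.368, interval -0.08 to 0.65), and by 0.16 (without KO replicate 1) to 0.41 (without KO replicate 2) with 1 array left out. Over the alternatives with all arrays, the first stayed between 0.61 and 0.71 (adjusted p 0.0625 to 0.118), and it was 0.49 to 0.77 with 1 array left out.

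Spint1, encoding HAI-1, was at 7.91 and 7.73 in KO and 7.59 and 7.95 in control. The control arrays lay on either side of the KO arrays, and the difference was 0.05 ± 0.17 (SE, adjusted p = 0.919, interval -0.36 to 0.45). St14 was at 8.33 and 8.03 in KO, against 7.71 and 7.89 in control, with no overlap. Its difference was 0.38 ± 0.16 (SE, ratio 1.30), with an interval from -0.004 to 0.77 and an adjusted p of 0.261. Removal of the span trend gave 0.50 ± 0.14 (SE, adjusted p = 0.123, within 0.123 to 0.353 over 10 alternatives), and with 1 array left out the difference was between 0.23 (without KO replicate 1) and 0.54 (without KO replicate 2).

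Of 9 measured partners and substrates of this protease system, none passed. At an unadjusted p of 0.05, 2 were higher and 1 lower (8.34% and 11.2% of all probe sets), and the median difference was -0.03. The largest difference was that of Met, the receptor of hepatocyte growth factor, whose precursor is cleaved by proteases that HAI-1 inhibits. Met was at 5.90 and 5.82 in KO and 6.42 and 6.43 in control (difference -0.57 ± 0.12, SE, adjusted p = 0.0817), and its other probe set, within the background range, differed by 0.03. Hgf, Hgfac, Mst1 and Plau were dim, and 3 of the 9 genes lay within the background range on all 4 arrays. Among 8 measured relatives of the 10 regulators none passed, and the median difference was 0.01. At an unadjusted p of 0.05, 2 were lower and none higher, against 11.2% lower and 8.34% higher over all probe sets. Grhl1 differed most, at 7.32 and 7.02 in KO and 7.59 and 7.86 in control (-0.56 ± 0.17, SE, adjusted p = 0.144).

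Other epithelial genes were counted as the surroundings of these regulators. Of 33 measured, each by its brightest probe set, 1 rose and none fell. Over all probe sets, dim ones included, 0.44% rose and 0.107% fell. The median difference of the 33 was 0.17. At an unadjusted p of 0.05, 10 were higher and none lower, against 8.34% higher and 11.2% lower over all probe sets. The riser was Cldn6, a tight junction claudin, at 8.54 and 8.41 in KO and 6.94 and 6.78 in control (difference 1.61 ± 0.13, SE, adjusted p = 0.0293). With 1 probe set per gene 4 rose, Cldn6 and also Cldn4, Lsr and Rab25, the last 3 named after their values were seen. In that fit 4.14% of genes passed, 360 higher and 394 lower. Cdh1, the E-cadherin gene, was at 12.30 and 11.98 in KO and 12.26 and 11.97 in control (0.02 ± 0.17, SE). Fits without KO replicate 1, KO replicate 2 or control replicate 2 cannot decide these calls. Each leaves a single array in 1 group and loses every call of the series.

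Among 11 measured repressors of epithelial genes none passed, and the median difference was -0.31. At an unadjusted p of 0.05, 1 was higher and 4 were lower (8.34% and 11.2% of all probe sets). The higher was Tcf3 and the lower were Prrx1, Zeb1, Snai1 and Snai2, with Tcf3 and Snai2 named after their values were seen. Snai1 is the gene removed and lay within the background range on all 4 arrays. Its place in this count and median is therefore no separate observation. Prrx1, a mesenchymal homeobox factor, differed most, at 6.83 and 6.09 in KO and 8.02 and 7.39 in control (-1.24 ± 0.30, SE, adjusted p = 0.0973). Another of its probe sets lay higher in KO by 0.76, and a dimmer one differed by -1.07. Zeb1, the target of Ovol2 repression, was at 6.84 and 6.53 in KO and 7.39 and 7.66 in control (-0.84 ± 0.17, SE, adjusted p = 0.0733). With 1 probe set per gene, where 4.14% of genes passed (360 higher and 394 lower), Zeb1 fell and no other repressor passed. The control arrays had the larger Actb gap throughout, by 2.04, and its part in these values was not tested.

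**Figure D4:**
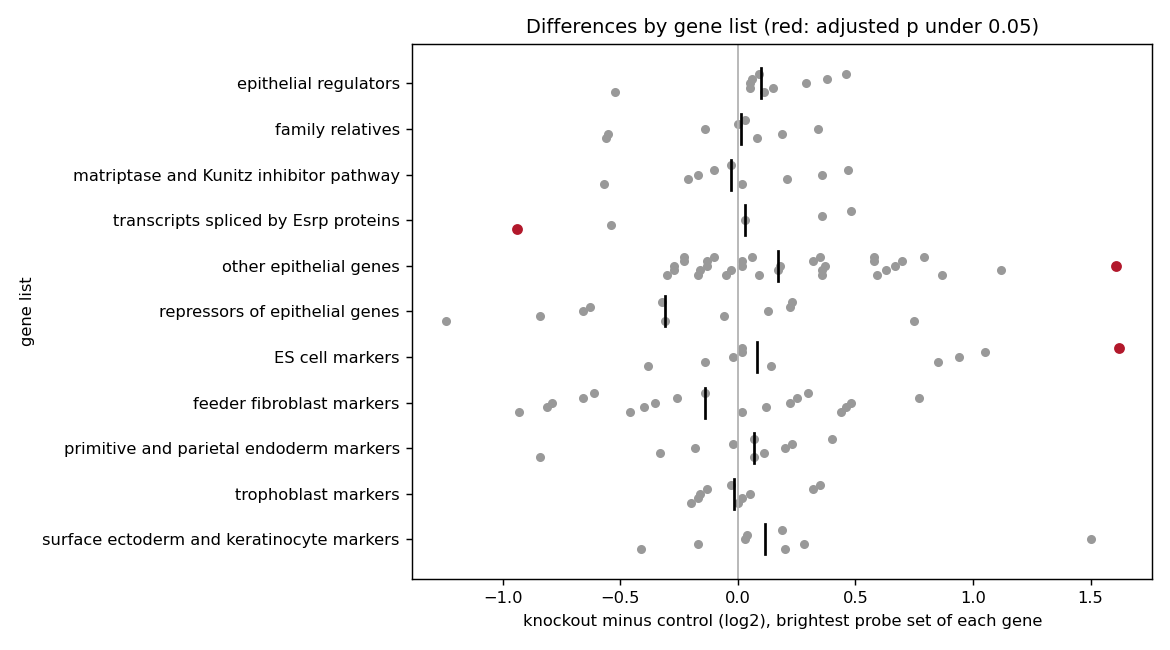
KO minus control (log2) of the brightest probe set of each gene, by gene list, with a bar at each list's median. Red dots passed an adjusted p of 0.05 over all probe sets; these are Fgfr2, Cldn6 and Utf1, and the row of the 10 epithelial regulators, with a median of 0.10, has none.

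The markers of ES cells were bright on all arrays, with a mean level of 11.57 and 11.53 in KO and 11.07 and 11.22 in control. Of 10, 1 rose, Utf1 (1.62 ± 0.14, SE, adjusted p = 0.0293), where 0.44% of all probe sets rose. Its other probe sets did not pass, at 0.61 for 1443786_at (adjusted p = 0.0924) and 0.18 for 1458333_x_at, within the background range. The Utf1 call was lost with any 1 array left out. Such fits leave a single array in 1 group and lose power for every probe set. With 1 probe set per gene, 4 of these 10 markers rose: Utf1 and also Esrrb, Nanog and Pou5f1, named after their values were seen. In that fit 4.14% of 18193 genes passed, 360 higher and 394 lower. Markers of feeder fibroblasts followed the replicate number more than the group. Their mean level over 19 genes was 8.50 and 7.85 in KO and 8.65 and 7.94 in control, and none passed. With 1 probe set per gene, where 360 of 18193 genes rose, 1 of the 19 did, Ccl2, named after its values were seen. The largest difference there was that of Col5a2, at 8.00 and 6.89 in KO and 8.96 and 7.78 in control (adjusted p = 0.365). The mean level of the 10 epithelial regulators was 7.68 and 7.55 in KO and 7.44 and 7.56 in control, so replicate 1 was the higher array in KO and the lower one in control. None of 10 markers of primitive and parietal endoderm passed, where Pdgfra differed by -0.84 (adjusted p = 0.0916), and by -0.48 and -0.10 with its other probe sets. Likewise none of 10 trophoblast markers passed (Krt7, 0.35, adjusted p = 0.208), and none of 8 markers of surface ectoderm and keratinocytes (Sfn, 1.50, adjusted p = 0.0904, at 8.45 and 7.35 in KO and 6.23 and 6.57 in control). Within the background range on all 4 arrays lay 1 gene of the endoderm list (Sox7), 2 of the trophoblast list (Elf5 and Gata3) and 3 of the ectoderm list (Krt14, Tfap2b and Trp63, a defining factor of keratinocytes). The mean levels of these lists lay between 5.36 and 5.75.

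**Figure D5:**
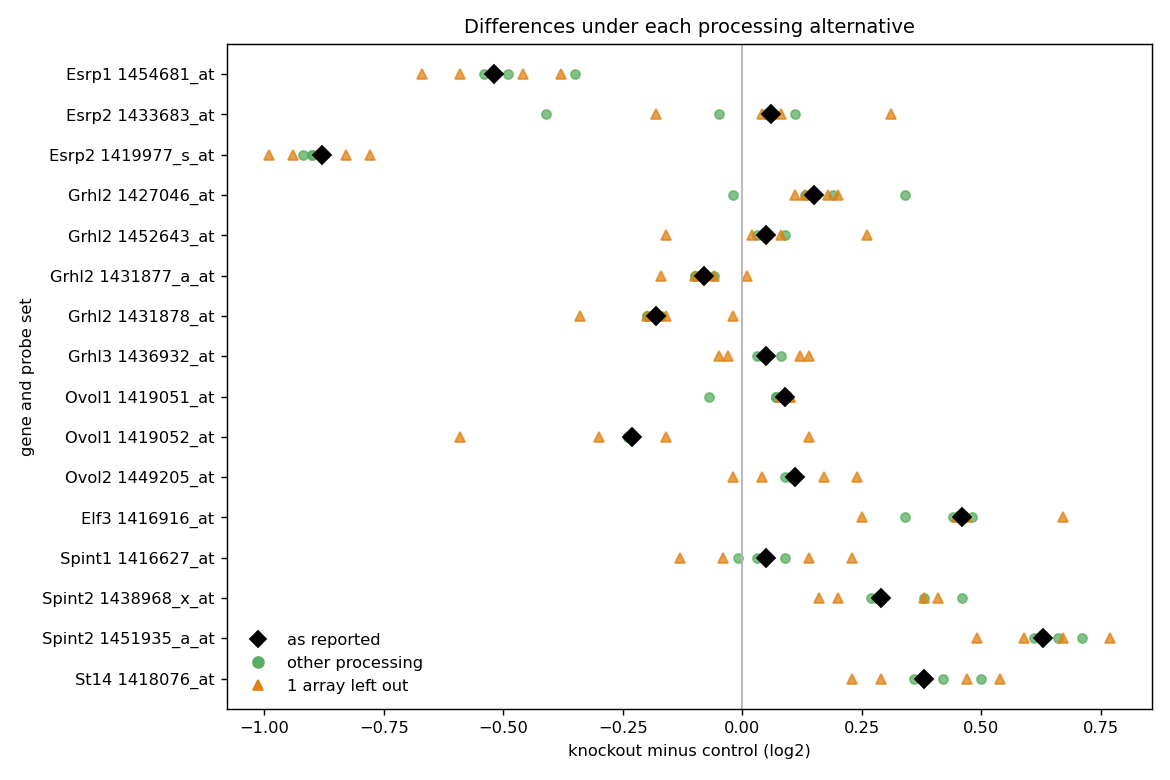
KO minus control (log2) for each probe set as reported (diamonds), with other processing (circles) and with 1 array left out (triangles). Values of genes averaged over probe sets stand on the line of the brightest one. Esrp1 and the dim Esrp2 probe set stay below 0 and Elf3, St14 and both Spint2 probe sets stay above 0 in every alternative run, while the brighter Esrp2 probe set, Grhl3 and Spint1, among others, lie on both sides of 0.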

How the data were processed

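RNA from 2 Snai1 knockout and 2 control samples was measured on 1-colour Affymetrix arrays after 3' labelling, per the labels' protocols. The authors deposited log2 expression values for 45101 probe sets; the submitters' processing notes name RMA and limma without versions, and in no stated order. RMA equalises the arrays' distributions, so a change common to most genes would not be seen.

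Probe sets were named from GEO's platform annotation, with symbols checked by gene ID against RefSeq (34741 of 34945 found, 0 changed). The 64 Affymetrix control probe sets were left out of the test. KO was compared with control by limma 3.58.1 (lmFit, eBayes) in R 4.3.3 on all 45037 remaining probe sets, without covariates. P-values are two-sided and Benjamini-Hochberg adjusted over all of them, called at 0.05 whatever the fold; 2 residual and 4.11 prior degrees of freedom stood behind each test. They measure the spread between these samples, which may be technical, and the number of arrays limits precision. SE is limma's moderated standard error. In other lists a gene is represented by its brightest probe set (highest mean over the arrays). Shares over all probe sets include dim and unnamed ones, so they are not matched to these lists in level. Genes named there were those past the threshold, up to 4, or the 1 with the largest difference, plus Snai1, Cdh1 and Zeb1. The members and lists were chosen with earlier results of these data known, so no list was tested as a set. Alternatives were 1 probe set or the mean per gene, trended or robust eBayes, further normalization, filters at a mean of 5 or 6, a replicate block, removal of each array's loess trend (span 0.3) with gene span and level, and leaving out each array.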

Additional observations from a re-analysis of the deposited data

How the results depend on the processing

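Over all probe sets 246 passed, and this count was 754 of 18193 genes with the brightest probe set per gene, 568 after further quantile normalization, 507 at a mean of at least 6, 515 with the span trend subtracted, and 0 to 173 with 1 array left out: 0 without KO replicate 1, KO replicate 2 or control replicate 2, where the single array left is taken to vary as the intact pair does. Among the epithelial regulators 0 passed except for 1 (Esrp2 1419977_s_at) after removal of the span trend and 1 with the replicate block. The replicate number gave a correlation over probe sets of 0.114 between the replicate differences of KO and control, and nothing in the labels says that it pairs samples. With that block 1536 probe sets passed, 3.41% of all tested, 834 higher and 702 lower. The Esrp2 probe set passed there at -0.88 (adjusted p = 0.042). The block also called 2 feeder markers (Col3a1 and Col5a2), Pdgfra, Prrx1 and Fgfr2 lower. It called 4 ES cell markers and 4 other epithelial genes (Cldn4, Cldn6, Lsr and Rab25) higher.

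Of 201 differences of the regulators under the alternatives, 185 kept direction and side of the threshold, 2 became significant and 14 changed sign, none of these past the threshold (lowest adjusted p = 0.178). With the mean over a gene's probe sets, Esrp2 was at -0.41, Grhl2 at -0.02 and Ovol1 at -0.07, since their dimmer probe sets entered. After removal of the span trend, the brighter Esrp2 probe set was at -0.05 and Spint1 at -0.01. With 1 array left out, the range was -0.18 to 0.31 for Esrp2 1433683_at, -0.16 to 0.26 for Grhl2 1452643_at, -0.17 to 0.01 for Grhl2 1431877_a_at, -0.05 to 0.14 for Grhl3, -0.59 to 0.14 for Ovol1 1419052_at, -0.02 to 0.24 for Ovol2 and -0.13 to 0.23 for Spint1. The cause was not tested. Filters at a mean of 5 and 6 kept 12 and 9 of the 16 probe sets.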

Other observations

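The 5 promoter windows and the array values can be set side by side, as values only. Spint2, with 3 E-boxes of the form CAGGTG or CACCTG, differed by 0.63 and 0.29 between KO and control, Grhl3, with 2, by 0.05, and Elf3, with 1, by 0.46. Ovol2 and Spint1, with none, differed by 0.11 and 0.05. None of these differences passed after adjustment, and with 5 genes no relation was computed.

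Probe sets of a gene that were read apart are a further point to look at again. Esrp2 differed by 0.06 with one probe set and by -0.88 with the other, and Fgfr2 by -0.94, -0.20 and -0.10. Zeb1 differed by -0.84 with the brightest and by -0.05 with the next. Its others, at -0.12 and 0.23, lay within the background range on all 4 arrays. Prrx1 differed by -1.24 with the brightest, by 0.76 with the next and by -1.07 with 1439774_at, whose KO arrays lay within that range. The remaining Prrx1 probe sets lay within it on all 4 arrays.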
